A study of Xenopus laevis with 25 samples.

Results

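The genes described here encode the proteins of the cytosolic ribosome, chosen by their symbols: rpl, rps or rplp followed by a number and at most a short ending of digits or the letters a, x, l and y. The rule found 86 of the 22891 transcripts in the files, which carry 76 of 13629 symbols, 47 of the large and 29 of the small subunit. The symbols RPLP2 and rplp2 differ in letter case, belong to different transcripts and are kept apart. Of a list of 79 canonical ribosomal proteins, 73 are among the members. rpsa and fau are in the files under symbols that the rule does not match, and 3, rps28, rpl30 and rpl41, were not found by symbol. The members rpl22l1 and rpl3l are paralogs outside the canonical list, so the label fits nearly all members.

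The libraries are poly-A selected RNA of whole Xenopus embryos collected 12, 13, 14, 15 and 16 hours post fertilization (hpf). At each hour there are 2 wild-type libraries and 3 from embryos injected with a morpholino, an antisense oligomer, against RNF20, which gives 10 and 15 libraries. RNF20 is an E3 ligase for monoubiquitination of H2B histones, a chromatin mark that the study relates to ciliary motility and the developing heart. The labels say nothing of a control injection, of the morpholino's dose or mode, or of how many embryos were pooled. They do not say whether replicates came from separate clutches, so p-values measure the spread between these libraries, which may be technical. Libraries with the same replicate number also resembled each other over the hours, which may make the p-values of averages over hours too small.

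A ribosome holds one copy of almost every ribosomal protein, bound to ribosomal RNA in a small subunit that reads the mRNA and a large subunit that joins amino acids. In vertebrates most ribosomal protein mRNAs begin with a 5′ terminal oligopyrimidine (TOP) tract, through which mTOR signalling and Larp1 set their translation and stability together. Xenopus eggs carry a large store of maternal ribosomes, and embryos are known to raise their own ribosomal protein mRNAs and to translate them increasingly as development goes on. Incorporation into ribosomes is matched across the proteins, and free Rpl5 and Rpl11, held with the 5S rRNA, can bind and inhibit the ubiquitin ligase Mdm2.

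Estimated counts per library ran from 12757711 to 36150636. The 5 libraries of morpholino replicate 3 stood apart from the rest, with mitochondrially encoded transcripts (13 symbols) at 2.31% to 2.89% of counts. That share was 1.33% to 1.89% in morpholino replicates 1 and 2 and 1.15% to 1.40% in wild type. The normalization factor by trimmed mean of M values (TMM) was 0.685 for replicate 3 at 16 hpf and 0.859 to 0.889 for replicate 3 at the other hours, against 0.941 to 1.15 in the other 20 libraries. Values are therefore given with and without replicate 3, whose part in the results was not tested beyond that. rnf20 mRNA itself was higher with the morpholino (54.4 to 102 against 38.3 to 79.3 in wild type, in CPM, counts scaled to a common library size by TMM; log2 change 0.32 ± 0.09 SE, edgeR adjusted p = 0.0152, and 0.24 ± 0.07 without replicate 3, adjusted p = 0.00969), and a morpholino need not lower the mRNA it targets. Of 8 markers of neural, mesodermal, endodermal and epidermal tissue, 7 were found and each was detected in all 25 libraries.

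Ribosomal protein transcripts took a growing share of the mRNA in wild-type embryos. The 76 members together held 2.53% and 2.33% of estimated counts in the wild-type libraries at 12 hpf, 2.78% and 2.57% at 13 hpf, 3.14% and 3.09% at 14 hpf, 3.31% and 3.36% at 15 hpf and 3.58% and 3.38% at 16 hpf. The replicates lay close together at every hour, and no library at 14 hpf or later fell within the range of those at 12 and 13 hpf. Morpholino replicates 1 and 2 held 2.44% and 2.19% at 12 hpf, 2.49% and 2.28% at 13 hpf, 2.74% and 2.48% at 14 hpf, 3.05% and 2.81% at 15 hpf and 3.20% and 3.06% at 16 hpf. They lay below both wild-type libraries from 13 hpf on, and at 12 hpf their range overlapped that of wild type. This separation of shares did not hold at 13 and 15 hpf under TMM scaling, by the median log2 deviation of members from their means. It was -0.046 in morpholino replicate 1 at 13 hpf, against -0.049 and -0.102 in wild type. At 15 hpf it was 0.193, against 0.118 and 0.228. Morpholino replicate 3 held 1.63%, 1.70%, 1.90% and 1.54% from 12 to 15 hpf, the lowest share at each of these hours, and then 5.07% at 16 hpf, the highest of all libraries. Measured per transcript length, as a share of TPM (transcript abundance corrected for length and depth), the members made up 7.43% to 11.1% of the wild-type libraries and 13.7% of that last library.

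**Figure D1:**
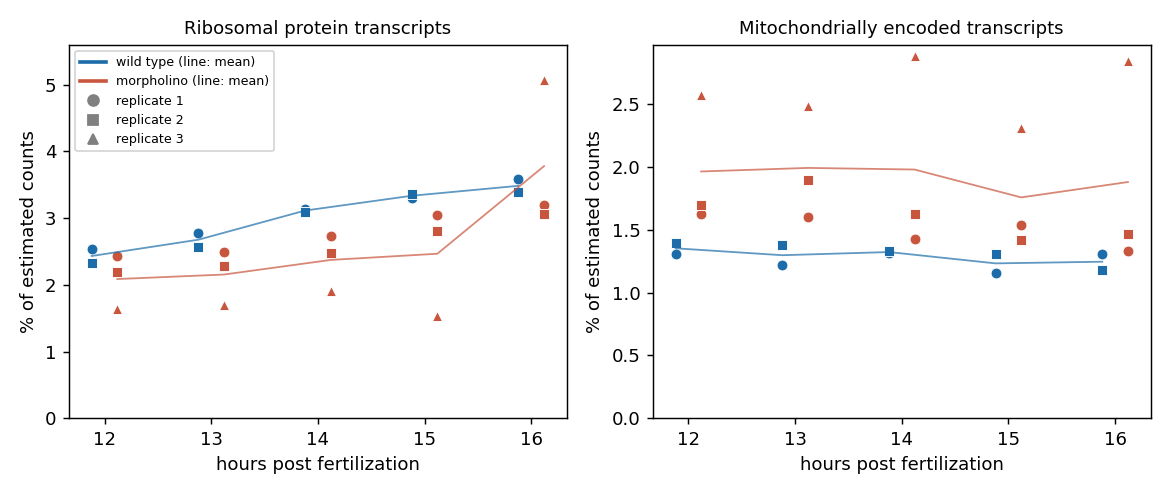
Share of estimated counts (%) taken by the 76 ribosomal protein genes and by mitochondrially encoded transcripts, against hours post fertilization. Each point is a library, marker shapes give replicate numbers and lines join group means. Morpholino replicate 3 (triangles) is lowest for ribosomal proteins from 12 to 15 hpf, highest at 16 hpf (5.07%), and highest for mitochondrial transcripts at each hour.

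Nearly every member was abundant in wild type. Across members the median of the wild-type mean was 1244 TPM, and 74 of 76 averaged 100 TPM or more. The spread over the 10 wild-type libraries, hours included, had a median of 14.3% of the mean. The highest level was that of rps20, a small-subunit protein, at 2894 ± 268 TPM (SD, n = 10). Next came rpl37 at 2330 ± 323 TPM and rpl32 at 2321 ± 305 TPM, both of the large subunit, whose levels do not differ beyond their spread. At the low end were rpl22l1, a paralog of rpl22 that in mouse can take its place, at 133 ± 14.0 TPM, rps27 at 3.17 ± 0.658 TPM and rpl3l at 0.189 ± 0.152 TPM. Rpl3l replaces Rpl3 in adult heart and skeletal muscle of mammals, and its 1 to 22 estimated counts per library bound what can be said of it. Wild-type rpl3 averaged 1737 ± 187 TPM and rpl22 802 ± 111 TPM. rps27, a zinc-finger protein of the small subunit, had only 9 to 43 estimated counts per library, and reads of a near-identical copy listed under another identifier would be missing from it.

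The rise with time was shared by almost all members, and its test depended on replicate 3. It was fitted as a straight line through the 5 hours of each arm by edgeR's quasi-likelihood method over 14184 features, all 76 members among them, and a change was called at an adjusted p under 0.05. In wild type the slope was positive for 75 of 76 members, with a median of 0.10 log2 per hour. No member was called, by edgeR or by DESeq2, while edgeR called 3.5% of all features higher. At an unadjusted edgeR p under 0.05 there was no member, against 3468 of 14184 features. With morpholino replicate 3 left out, the wild-type slopes hardly moved (median 0.10), but 72 of 76 members rose, against 26.3% of all features. The wild-type libraries are the same in both fits, while the spread estimated for all arms together, the features kept (13988 without replicate 3) and the scaling differ. In the morpholino arm all 76 slopes were positive with a median of 0.21 log2 per hour, and 60 members rose, against 14.3% of features. Without replicate 3 that median was 0.08 log2 per hour and 60 members again rose, against 28.1% of features, 55 of them called in both fits. Single libraries moved the counts: without morpholino replicate 2 at 12 hpf, replicate 3 at 12 hpf, replicate 1 at 15 hpf or replicate 3 at 16 hpf, 25, 7, 38 and 21 members rose in the morpholino arm. Without replicate 3 at 16 hpf alone, 9 rose in wild type. The shares of all features called in these single-library fits are not given here, so these counts do not describe the members alone. All of these rises are relative to the other transcripts. Scaled to the members alone, the median slope was 0.01 for wild type and -0.00 for the morpholino, with no member called. That scaling removes any rise common to the members, so these values do not test it.

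Among the members that rose in the morpholino arm with all libraries, the steepest were rps9, rps13 and rpl29. rps9, whose yeast counterpart is needed for accurate decoding, was at 262 and 237 CPM in wild type at 12 hpf and at 426 and 400.4 CPM at 16 hpf. In the morpholino arm it went from 274, 247 and 174 CPM to 394, 384 and 1012 CPM for replicates 1, 2 and 3. Its slope was 0.30 ± 0.08 log2 per hour with all morpholino libraries (SE, edgeR adjusted p = 0.0127) and 0.16 without replicate 3 (adjusted p = 3.15e-05), beside 0.19 ± 0.02 in wild type without replicate 3. Its call in the morpholino arm ended without replicate 3 at 12 hpf (0.26, adjusted p = 0.0577). rps13 rose by 0.29 ± 0.06 log2 per hour (adjusted p = 0.00501) and by 0.11 without replicate 3. rpl29 rose by 0.29 ± 0.07 (adjusted p = 0.0116) and by 0.10 without replicate 3. In the fit without replicate 3 the steepest slopes were 0.16 among small-subunit members and 0.14 among large-subunit members. rps9, at 0.16, thus stayed at the top there, while rps13 and rpl29 did not keep their ranks. By subunit, 41 of 47 large-subunit and 19 of 29 small-subunit genes rose in the morpholino arm with all libraries, against 14.3% of features. Without replicate 3 these counts were 39 and 21, against 28.1% of features. Median slopes of large-subunit and small-subunit members were 0.22 and 0.21 log2 per hour with all libraries, and 0.08 and 0.07 without replicate 3. Among the 74 members that averaged 100 TPM or more in wild type, rpl22l1 had the lowest slope in the morpholino arm in both fits (0.10 with all libraries, adjusted p = 0.280, and -0.01 without replicate 3, adjusted p = 0.701).

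The slopes of the arms were not shown to differ. The difference of slopes, morpholino minus wild type, was positive for 76 of 76 members with all libraries (median 0.11 log2 per hour) and negative for 71 of 76 without replicate 3 (median -0.03). No member was called in either fit, and 0% of all features were. At an unadjusted edgeR p under 0.05 the first fit had no member, against 575 of 14184 features. The second fit had 1 member, against 1569 of 13988 features. DESeq2 called no member. By edgeR with all libraries, the members nearest to a call were rps13, at a difference of 0.18 ± 0.10 log2 per hour, rps26, at 0.17 ± 0.10, and rpl28, at 0.15 ± 0.11, and the adjusted p was 0.999993 for each.

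**Figure D2:**
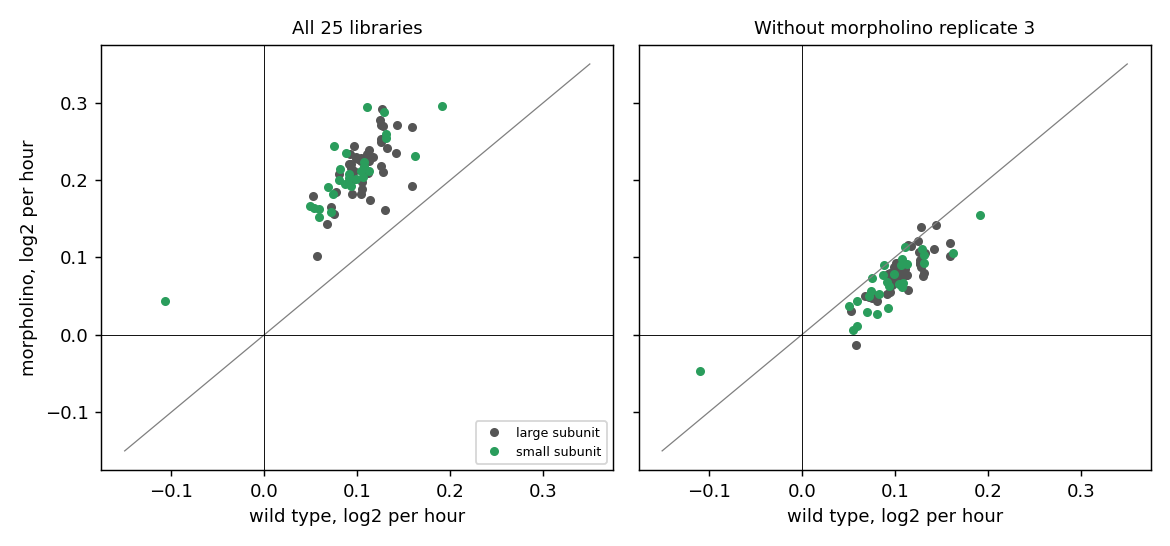
Slope of each of the 76 members in the morpholino arm against its slope in wild type (log2 per hour), with all 25 libraries on the left and without morpholino replicate 3 on the right. The grey line marks equal slopes: all 76 members lie above it on the left, and 71 lie below it on the right.

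In the average over the hours, most ribosomal protein genes differed little between arms and 3 of the large subunit were called lower with the morpholino. For 1 of them, rpl5, the call depended on single libraries, as given below. Averaged over the 5 hours, rpl10a, rplp0 and rpl5 fell and rpl3l rose. That is 3 members lower, against 17.4% of all features, and 1 higher, against 17.2%. The median over the 76 members was -0.04 log2 and over all features -0.01, with 58 members below 0. Large-subunit and small-subunit members had medians of -0.05 and -0.04. Behind these averages lay hourly member medians of opposite sign, between -0.30 and -0.11 log2 at 12 to 15 hpf and 0.53 at 16 hpf. Whole-embryo RNA cannot tell fewer cells that express a gene from less RNA per cell. Without replicate 3 the same 3 genes and another 19 members were called lower, against 23.6% of features, and rpl23 and rpl3l higher, against 21.9%. The median was then -0.06 over the members. Leaving out replicate 3 at 16 hpf alone gave 15 lower and 1 higher. Under library totals alone, with no TMM factor, 6 members were called lower and 1 higher, while the median of all features moved to -0.17. The shares of all features called in these last fits are not given, so their counts do not describe the members alone.

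**Figure D3:**
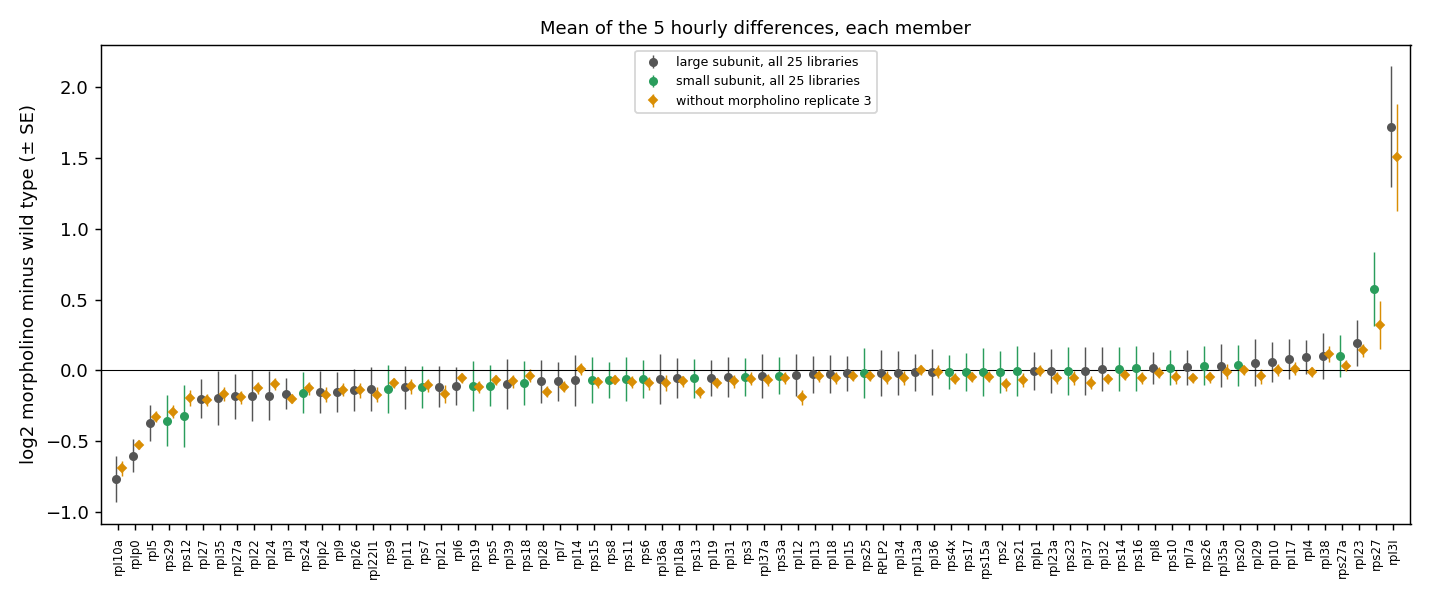
Mean of the 5 hourly differences, log2 morpholino minus wild type, for each member, ordered by its value. Circles show the fit to all 25 libraries (large subunit grey, small subunit green), diamonds the fit without morpholino replicate 3, and bars the SE. rpl10a, rplp0 and rpl5 lie lowest in both fits, and rpl3l, which rests on 1 to 22 counts per library, highest.

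rpl10a, a large-subunit protein that in mouse cells is present on only part of the ribosomes, showed the largest fall. In wild type its level was 311 and 253 CPM at 12 hpf, 366 and 344 at 13 hpf, 407 and 382 at 14 hpf, 433 and 420.4 at 15 hpf and 473 and 418 at 16 hpf, TMM-scaled. In morpholino replicates 1, 2 and 3 it was 212, 196 and 144 CPM at 12 hpf, 228, 210.0 and 161 at 13 hpf, 235, 207 and 158 at 14 hpf, 246, 272 and 83.7 at 15 hpf and 237, 293 and 544 at 16 hpf. Every morpholino library lay below both wild-type libraries at 12 to 15 hpf, and at 16 hpf replicate 3 lay above them and the other morpholino libraries below. The average difference was -0.77 ± 0.17 log2 (SE, edgeR adjusted p = 0.00292), and without replicate 3 -0.69 ± 0.05 (adjusted p = 6.19e-07). Without replicate 3 it was called at each hour, from -0.47 at 12 hpf (adjusted p = 0.0348) to -0.83 at 14 hpf (adjusted p = 0.00228). In wild type rpl10a rose by 0.16 ± 0.03 log2 per hour in that fit (adjusted p = 0.000391).

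rplp0, the protein at the base of the stalk that recruits translation factors to the large subunit, had the next largest fall. Wild-type levels were 495 and 462 CPM at 12 hpf, 525 and 523 at 13 hpf, 586 and 623 at 14 hpf, 632 and 668 at 15 hpf and 697 and 652 at 16 hpf. Morpholino replicates 1, 2 and 3 stood at 354, 393 and 253 CPM at 12 hpf, 370, 381 and 269 at 13 hpf, 397, 382 and 292 at 14 hpf, 426, 429 and 241 at 15 hpf and 437, 479 and 769 at 16 hpf. Apart from replicate 3 at 16 hpf, no morpholino library reached the wild-type libraries of its hour. The average difference was -0.60 ± 0.12 log2 (edgeR adjusted p = 0.00155), and -0.52 ± 0.03 without replicate 3 (adjusted p = 1.20e-07), called at all 5 hours in that fit. Of its 2 transcripts, the one with 94.7% to 100% of its counts carried the change (-0.60 ± 0.12, adjusted p = 0.00274 among transcripts).

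The stalk proteins that dimerize on Rplp0 did not follow it to the same extent. rplp1 averaged 347 ± 41.8 CPM in wild type (SD, n = 10) and 356 ± 164 CPM in the morpholino arm (n = 15). That morpholino mean includes 918 CPM in replicate 3 at 16 hpf, while the next highest morpholino library was at 404 CPM. The average log2 difference of rplp1 was -0.00 ± 0.13 (edgeR adjusted p = 0.985). For RPLP2 the difference was -0.02 ± 0.16 (adjusted p = 0.943), and for rplp2 -0.15 ± 0.15 (adjusted p = 0.429). Without replicate 3, rplp2 fell by 0.17 ± 0.05 (adjusted p = 0.0210), while rplp1 was at -0.00 ± 0.04 (adjusted p = 0.950) and RPLP2 at -0.05 ± 0.05 (adjusted p = 0.366). The difference between these genes and rplp0 was not tested.

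rpl5, which carries the 5S rRNA into the large subunit together with rpl11, was also lower. It was at 547 and 494 CPM in wild type at 12 hpf, 533 and 509.8 at 13 hpf, 610.2 and 615 at 14 hpf, 626 and 665 at 15 hpf and 724 and 660.2 at 16 hpf. In morpholino replicates 1, 2 and 3 it was at 444, 392 and 271 CPM at 12 hpf, 439.7, 399.6 and 314 at 13 hpf, 495, 442 and 368 at 14 hpf, 526, 508 and 307 at 15 hpf and 571, 549.7 and 1113 at 16 hpf. The groups did not overlap from 12 to 15 hpf, and at 16 hpf only replicate 3 exceeded wild type. The average difference was -0.37 ± 0.13 log2 (edgeR adjusted p = 0.0312) and -0.33 ± 0.04 without replicate 3 (adjusted p = 2.69e-05). The call with all libraries was kept under 24 of 36 alternatives, with adjusted p between 2.69e-05 and 0.888. It ended without wild-type replicate 1 at any of the 5 hours, wild-type replicate 2 at 14 or 15 hpf, or morpholino replicate 3 at 13 or 14 hpf, with differences of -0.38 to -0.35 and adjusted p of 0.0511 to 0.0664. With the replicate number as a block the difference was -0.31 (adjusted p = 0.101). Restricted to the same hours in both arms from 14 to 16 hpf, it was -0.31 (adjusted p = 0.200). Over 14 to 16 hpf against wild type 2 hours younger, a comparison described further on, it was -0.07 (adjusted p = 0.888). rpl11, its partner, averaged 301 ± 46.1 CPM in wild type and 291 ± 168 CPM in the morpholino arm. That morpholino mean includes 859 CPM in replicate 3 at 16 hpf, while the next highest morpholino library was at 361 CPM. The rpl11 difference was -0.12 ± 0.15 (edgeR adjusted p = 0.559), and -0.11 ± 0.05 without replicate 3 (adjusted p = 0.103).

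rpl3l rose by 1.72 ± 0.42 log2 (edgeR adjusted p = 0.00639) and by 1.504 ± 0.38 without replicate 3 (adjusted p = 0.0055). Its level stayed far below that of other members: 0.0460 to 0.362 CPM with a median of 0.0658 in wild type, and 0.0606 to 1.83 CPM with a median of 0.364 in the morpholino arm. The groups overlapped, and the wild-type values stand for 1 to 7 estimated counts per library. Only morpholino libraries had enough counts for rpl3l to pass the filter on low counts. Its call is therefore not independent support for a rise. rpl3, whose place it takes, was at -0.16 ± 0.11 (adjusted p = 0.244) and fell by 0.20 ± 0.03 without replicate 3 (adjusted p = 0.000174).

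**Figure D4:**
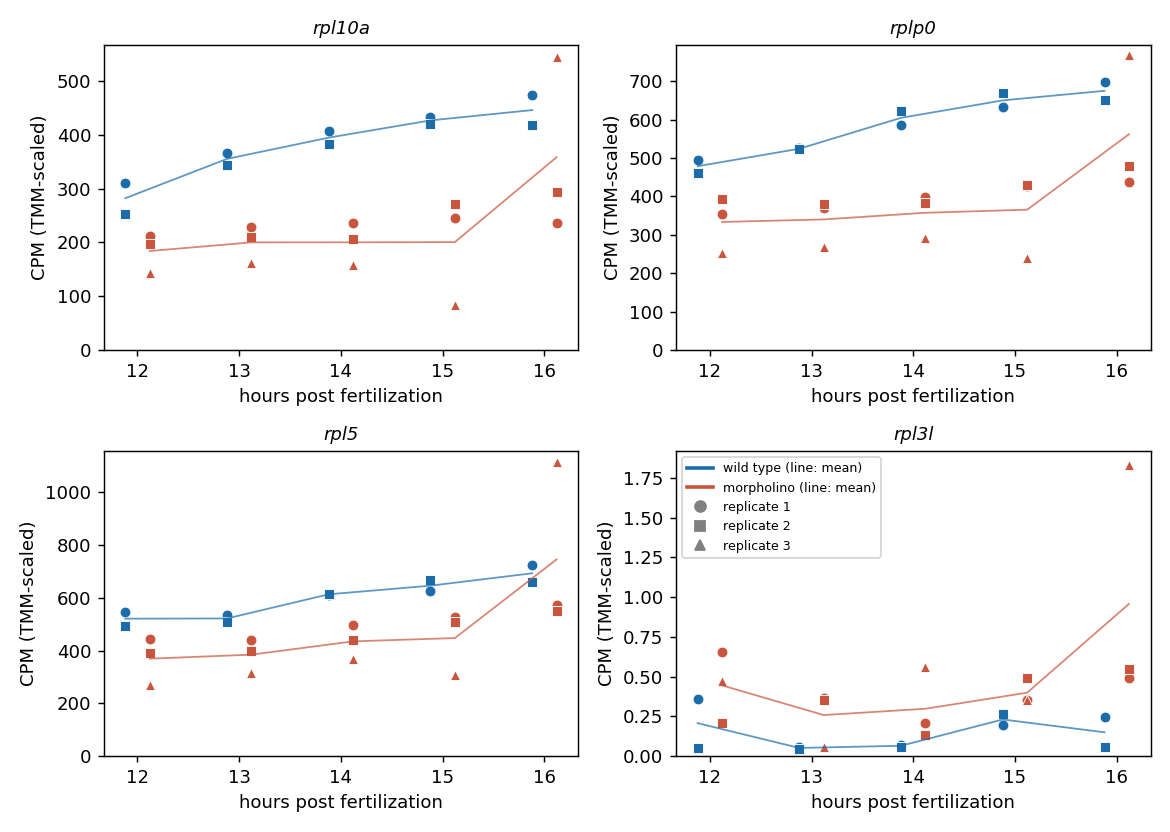
Level (TMM-scaled CPM) of rpl10a, rplp0, rpl5 and rpl3l in each of the 25 libraries against hours post fertilization, with lines through group means. For rpl10a, rplp0 and rpl5 all morpholino libraries lie below wild type from 12 to 15 hpf, and at 16 hpf replicate 3 alone lies above (544, 769 and 1113 CPM).

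Other members with roles known beyond the ribosome were not called in the average over the hours with all libraries. Rpl23 and Rpl26 can bind Mdm2 in mammalian cells. rpl23 was at 0.20 ± 0.16 log2 (edgeR adjusted p = 0.352) and rose by 0.14 ± 0.05 without replicate 3 (adjusted p = 0.0211), the only abundant member to do so. rpl26 was at -0.14 ± 0.15 (adjusted p = 0.478) and fell by 0.14 ± 0.05 without replicate 3 (adjusted p = 0.0450). rps19 and rps14, affected in Diamond-Blackfan anaemia and in a myelodysplastic syndrome of humans, were at -0.11 ± 0.17 (adjusted p = 0.638) and 0.01 ± 0.16 (adjusted p = 0.957). Of these, rps19 fell by 0.11 ± 0.04 without replicate 3 (adjusted p = 0.0392), and rps14 was at -0.03 ± 0.04 (adjusted p = 0.527).

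rps6, the substrate of the S6 kinases, was at -0.06 ± 0.13 (edgeR adjusted p = 0.741), and at -0.09 ± 0.05 without replicate 3 (adjusted p = 0.136). rpl38, which in mouse is needed for the translation of Hox mRNAs, was at 0.10 ± 0.16 (adjusted p = 0.636). rps27a, made as a fusion with ubiquitin, was at 0.10 ± 0.15 (adjusted p = 0.603). rpl39, at the exit of the peptide tunnel, was at -0.10 ± 0.18 (adjusted p = 0.681). None of these last 3 was called without replicate 3 (adjusted p = 0.0925, 0.515 and 0.180). The paralogs rpl22 and rpl22l1 were at -0.18 ± 0.18 and -0.13 ± 0.15 (adjusted p = 0.450 and 0.519), and without replicate 3 both fell, by 0.13 ± 0.04 and 0.17 ± 0.05 (adjusted p = 0.0299 and 0.0168). rps27, at its very low level, was at 0.57 ± 0.26 (adjusted p = 0.0903), and at 0.32 ± 0.17 without replicate 3 (adjusted p = 0.142).

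Apart from rpl10a, rplp0, rpl5 and rpl3l, the members called without replicate 3 had small differences. The 19 that were lower in that fit alone lay between -0.09 (rpl19) and -0.29 (rps29), 5 of them of the small subunit: rps12, rps13, rps19, rps24 and rps29. rps29 was at 162 and 147 CPM in wild type at 12 hpf and at 203 and 198 CPM at 16 hpf. The morpholino values for replicates 1, 2 and 3 were 135, 127 and 75.7 CPM at 12 hpf and 167, 173 and 436 CPM at 16 hpf. Its average was -0.29 ± 0.04 log2 without replicate 3 (edgeR adjusted p = 0.000143) and -0.35 ± 0.18 with it (adjusted p = 0.131).

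Hour by hour, with all libraries, no member was called. At an unadjusted p under 0.05 by edgeR there were 0, 2, 2, 2 and 4 members at 12, 13, 14, 15 and 16 hpf. Of the 14184 features, 1317, 2239, 1367, 1694 and 1920 had such a p at these hours. DESeq2 called no member at an adjusted p under 0.05. At that adjusted p edgeR called 0.127%, 0.148%, 0.155%, 0.0987% and 0.31% of all features at these hours. The medians of the members were -0.11, -0.12, -0.25 and -0.30 log2 from 12 to 15 hpf, with 71, 69, 74 and 74 of 76 members below 0, and 0.53 at 16 hpf, with 74 above 0. The signs of these 5 medians were the same under TMM, DESeq2's size factors and library totals. Scaled to the members alone, which removes a shift common to them, the medians lay between -0.01 and 0.02. Without replicate 3 the medians were 0.01, -0.01, -0.17, -0.07 and -0.09 log2, so that 12 and 16 hpf changed sign.

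Without replicate 3, 3 members were called at 12 hpf, 3 at 13 hpf, 6 at 14 hpf, 3 at 15 hpf and 2 at 16 hpf, all of them lower. The shares of all features called in that fit were 6.28%, 19.9%, 5.4%, 5.52% and 3.87%. rpl10a and rplp0 were called at each hour and rpl5 from 12 to 15 hpf. At 14 hpf rpl3 (-0.29, edgeR adjusted p = 0.0247), rps29 (-0.38, adjusted p = 0.0367) and rpl12 (-0.42, adjusted p = 0.0438), a protein at the base of the stalk, joined them. Except at 14 hpf, the calls of each hour were thus rpl10a, rplp0 and, up to 15 hpf, rpl5.

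To set aside the shift of the whole group, each member's log2 level was taken relative to the median member of its library. On that scale rpl10a was at 0.01 to 0.40 in wild type, with a median of 0.27, and at -1.04 to -0.12 in the morpholino arm, with a median of -0.39. The arms did not overlap in any hour, 16 hpf with replicate 3 included. rplp0 was at 0.81 to 0.95 in wild type, with a median of 0.87, and at -0.18 to 0.64 in the morpholino arm, with a median of 0.38. The same held for rpl5 (0.79 to 0.999, median 0.90, against 0.35 to 0.83, median 0.65) and rps29 (-0.84 to -0.68, median -0.77, against -1.49 to -0.82, median -0.99), in which each hour taken alone was separate.

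These 4 were the members lower at all 5 hours without overlap, against 1.95% of all features on the same scale. Higher at all 5 hours were 3 members, rpl23, rps20 and rps27a, against 2.41% of features. This scale takes the shared shift out of the members but puts it into the other features. The shares of 1.95% and 2.41% are therefore not a like background for the members. rpl23 was at -0.89 to -0.67 in wild type, with a median of -0.75, and at -0.58 to -0.23 in the morpholino arm, with a median of -0.48. In a fit scaled to the members alone, rpl10a (-0.71, edgeR adjusted p = 0.000587), rplp0 (-0.52, adjusted p = 0.00224), rpl5 (-0.30, adjusted p = 0.0178) and rps29 (-0.32, adjusted p = 0.0354) were lower, against 6.28% of features. rpl23 (0.24, adjusted p = 0.0412) and rpl3l (1.79, adjusted p = 0.00667) were higher, against 14.2%. Of the others without overlap, rps20 (0.09, adjusted p = 0.375) and rps27a (0.16, adjusted p = 0.149) were not called, and rpl3l was called although its arms overlapped at 1 of the 5 hours. In that fit the median of all features moved to 0.13.

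**Figure D5:**
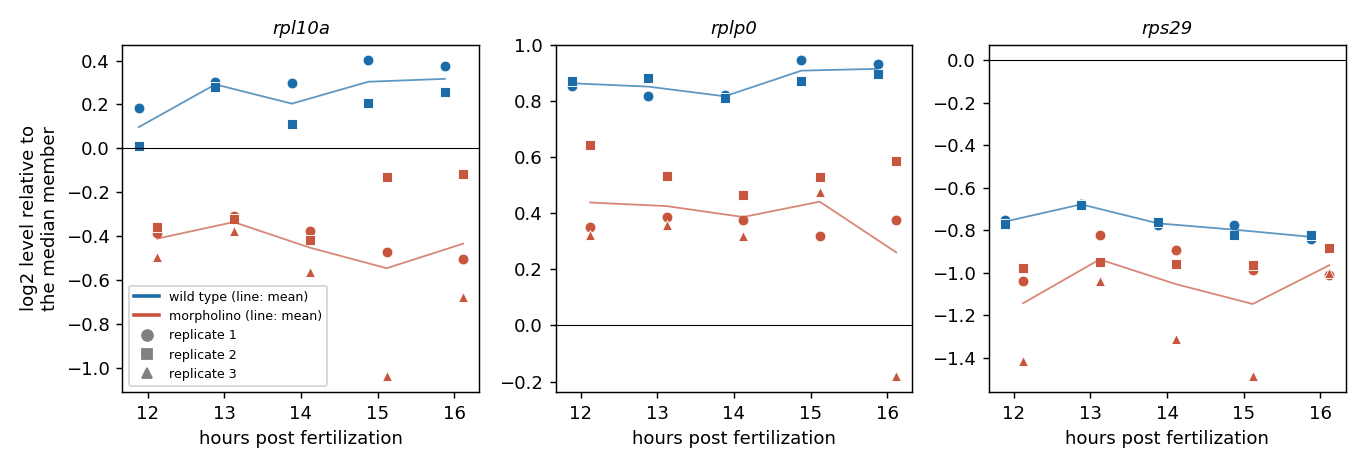
Log2 level of rpl10a, rplp0 and rps29 relative to the median ribosomal protein gene of the same library, against hours post fertilization, with lines through group means. In all 3 panels the morpholino libraries, replicate 3 included, lie below the wild-type libraries of the same hour.

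Since the members rise with time, morpholino embryos at 14, 15 and 16 hpf were also set against wild type 2 hours younger. With all libraries the median of the members was then 0.21 log2, and 1 member was called higher, rpl3l, against 1.62% of features. Without replicate 3 the median was 0.09, with 14 members higher, against 10.9% of features, and 2 lower, against 11.9%. Those lower were rpl10a (-0.45, edgeR adjusted p = 0.000477) and rplp0 (-0.32, adjusted p = 0.000158), while rpl5 was at -0.09 (adjusted p = 0.216). Neither was called with replicate 3 included (rpl10a -0.49, adjusted p = 0.265, and rplp0 -0.35, adjusted p = 0.257). Among the 14 higher were rpl23 (0.35, adjusted p = 0.000917) and rps9 (0.25, adjusted p = 0.0020).

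The authors' deposited table compares arms at each hour with sleuth per transcript. From 12 to 16 hpf the authors' deposited table gave q-values under 0.05 to 0, 2, 2, 0 and 0 member transcripts. Over all tested transcripts the authors' deposited table has 129 of 15474, 911 of 15645, 167 of 15748, 99 of 16422 and 7 of 16148. The member transcripts in the authors' deposited table were, at 13 and at 14 hpf, those of rpl10a and rplp0. For rpl10a the authors' deposited table has -0.85 log2 at 13 hpf (q = 0.00141) and -0.995 at 14 hpf (q = 0.00198), turned here to morpholino minus wild type. For the main rplp0 transcript the authors' deposited table has -0.66 at 13 hpf (q = 0.0340) and -0.76 at 14 hpf (q = 0.00558). Wild type was the higher arm in the authors' deposited table for 77 of 83 member transcripts at 12 hpf, 75 of 83 at 13 hpf, 77 of 82 at 14 hpf and 79 of 83 at 15 hpf, and for 3 of 84 at 16 hpf. Those comparisons were made from this same series, so they are not separate support. In the edgeR fit without replicate 3, 42, 29, 4, 10 and 5 of 76 members were above 0 from 12 to 16 hpf. The majority sign at 12 and 16 hpf was thus the opposite there.

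Genes around the ribosome were set beside the members, from lists that overlap and that were drawn up with earlier results of these data known. Of the ribosomal proteins outside the symbol rule, rpsa, fau and the scaffold rack1 were not called in the average of the hours. Each of them rose with time in the morpholino arm, and in wild type too once replicate 3 was left out. Without replicate 3, rpsa fell by 0.24 ± 0.07 in the average (edgeR adjusted p = 0.0112). Among 10103 symbols outside the members with enough signal, the pattern over the 10 group means most like that of the median member was that of fau (Pearson r = 0.993), then etfa, an electron transfer flavoprotein subunit (r = 0.987), and anxa4, an annexin (r = 0.980). These group means include replicate 3 at 16 hpf.

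Of 94 ribosome biogenesis factors tested, 21 were higher and 8 lower in the average of the hours, with a median of 0.21 log2. The shares of all features in that fit were 17.2% higher and 17.4% lower. Without replicate 3, 34 were higher and 18 lower, against 21.9% and 23.6% of features, with a median of 0.04. Those with the smallest p were tbl3, a small-subunit processome protein (-0.39 ± 0.06, edgeR adjusted p = 0.000389), nol10 (0.57 ± 0.09, adjusted p = 0.000412) and eif6, which keeps large subunits from joining too early (0.58 ± 0.11, adjusted p = 0.00121). Without replicate 3 they were at -0.46, 0.48 and 0.41. Among 42 translation factors and other TOP mRNAs, 11 were higher, against 17.2% of features, and 1 lower, against 17.4%. Without replicate 3 these counts were 15, against 21.9%, and 5, against 23.6%. The one lower with all libraries was eif3b, a subunit of initiation factor eIF3, which fell by 0.75 ± 0.09 from 593 to 723 CPM in wild type to 309.5 to 549 CPM in the morpholino arm (adjusted p = 3.99e-05), and by 0.89 without replicate 3. The start codon factor eif1 rose by 0.92 ± 0.14 (adjusted p = 0.000193), and by 0.81 without replicate 3.

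Of 26 regulators of TOP mRNA translation, 4 were higher and 5 lower, shares near the 17.2% and 17.4% of all features. Without replicate 3, 7 were higher and 7 lower, against 21.9% and 23.6%. Among them was mtor (0.37 ± 0.08, edgeR adjusted p = 0.00199, and 0.37 without replicate 3). lamtor1, which tethers mTOR to lysosomes, was at 0.60 ± 0.14 (adjusted p = 0.00555) and, without replicate 3, at 0.35 ± 0.04 (adjusted p = 1.78e-05). The S6 kinase family member rps6ka1 was at -0.83 ± 0.15 (adjusted p = 0.000928), and at -1.03 without replicate 3. Beside the Mdm2-binding members, ccng1, which encodes cyclin G1, rose by 1.92 ± 0.11, from 98.9 to 204 CPM in wild type to 347 to 867 CPM (adjusted p = 1.53e-08). mdm2 rose by 0.76 ± 0.10 (adjusted p = 7.56e-05). Without replicate 3 they rose by 1.79 and 0.63.

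Of 67 mitochondrial ribosomal proteins, which serve the separate ribosome of mitochondria, 4 were higher, against 17.2% of features, and 0 lower, against 17.4%, with a median of 0.13 log2. Without replicate 3 it was 13, against 21.9%, and 8, against 23.6%, with a median of 0.01. The smallest p-values were those of mrps18a (0.58 ± 0.17, edgeR adjusted p = 0.0137), mrpl44 (0.40 ± 0.12, adjusted p = 0.0141) and mrps11 (0.75 ± 0.23, adjusted p = 0.0210). Without replicate 3 the values were 0.31 ± 0.06 (adjusted p = 0.00114), 0.27 ± 0.05 (adjusted p = 0.000497) and 0.30 ± 0.10 (adjusted p = 0.0246). With time in wild type, none of the 67 was called with all libraries, against 3.5% of features higher. Without replicate 3, 26 rose, against 26.3% of features, and 3 fell, against 24.1%, with a median of 0.07 log2 per hour.

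The labels call the animals Xenopus laevis, a species with a doubled genome, but the transcript identifiers carry the Xenopus tropicalis prefix. In the RefSeq annotation of Xenopus laevis (v10.1) 54 of the 76 symbols have an entry on both the L and the S subgenome, 14 on L alone, 7 on S alone and 1 on neither. rplp0, rpl5 and rpl3l have both, and rpl10a and rps29 an S entry. If the embryos were Xenopus laevis, the value of a symbol with both entries may combine reads of both copies. How far reads of each copy were counted is not known, and a change in 1 of them could not be told apart.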

How the data were processed

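The authors' deposited tables give estimated counts, transcript lengths and TPM for 22891 transcripts in each of 25 libraries, made with kallisto per the submitters' processing notes. For every hour the authors deposited a sleuth comparison of the arms, named in the same notes, with p-values, q-values, natural log effects and other scores. Their effects are wild type minus morpholino, since that difference in the counts correlated with them at r = 0.956 or more at each hour, and were converted to log2 with the sign reversed. Software versions, settings and the transcriptome are not given in the sources used here. Symbols come from the authors' comparison table for 12 hpf. In each library, 26.6% to 31.1% of the 22891 transcripts had an estimated count that was not whole.

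Counts were summed per symbol (features without one stay transcripts, 19103 in all), rounded, filtered with filterByExpr over the 10 groups (14184 kept), scaled by TMM and fitted with edgeR 4.0.16 (limma 3.58.1, R 4.3.3) by quasi-likelihood over all 25 libraries. P-values were adjusted by Benjamini-Hochberg over all features, and calls use an adjusted p under 0.05. The average is the mean of the 5 hourly differences, SE the fitted change divided by the root of F, and CPM is TMM-scaled, with 0.5 added before log2. The scripts were tested on simulated data. Alternatives were other scalings, no filter, DESeq2 1.42.0, single transcripts, replicate blocks, each library left out and morpholino replicate 3 left out. Scaling to the members alone, and dropping replicate 3 from the comparison with younger wild type and from the neighbouring lists, were chosen after seeing the data. Tables and figures used Python 3.11.15 with pandas 2.3.3.

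The members and all lists were chosen with earlier results of these data known. Named members are those fixed for known roles, the largest called changes and slopes, the smallest p for a difference of slopes, and the 3 highest and 3 lowest TPM. Of each list the 3 symbols with the smallest p are named, and 3 symbols by likeness. Some genes that this rule selects, and the counts of a list that holds one, are not reported here. rps29, rps12, rps24, rpl12, rpl19 and, beside the rule, the members called in a single hour or without overlap were named after their values were seen. Replicate numbers were checked for pairing by correlating deviations from group means. Within wild type, libraries of a number correlated over hours (r from 0.276 to 0.454). The morpholino arm showed the same, with r ranges of 0.289 to 0.656 (replicate 1), 0.083 to 0.421 (replicate 2) and 0.367 to 0.755 (replicate 3). Libraries that share a number are thus not independent over the hours, while the main fits treat them so. Adjusted p-values of the averages may therefore be too small. Pairing across arms needed r over 0.1 in all 10 same-numbered pairs, which was not met, so the block stayed an alternative.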

Additional observations from a re-analysis of the deposited data

How the results depend on the processing

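The count of members called in the average of the hours (4) became 7 under library totals alone. Without morpholino replicate 3 it became 24, where 21.9% of all features were called higher and 23.6% lower. Morpholino at 14 to 16 hpf against wild type 2 hours younger, which is another comparison rather than other processing, gave 1. Leaving out each library in turn gave 3 to 16. Hourly counts of 0 became 3, 3, 6, 3 and 2 from 12 to 16 hpf without replicate 3. The shares of all features called were then 6.28%, 19.9%, 5.4%, 5.52% and 3.87%. Wild-type slopes called higher went from 0 to 72 without replicate 3, while the share of all features called higher went from 3.5% to 26.3%. With single libraries left out, 0 to 9 wild-type slopes of members were called. Morpholino slopes called (60) ranged from 7 to 73 with single libraries left out and were 0 when scaled to the members alone, which removes a shift common to them. Other causes were not tested. Shares of all features called are not given for library totals, single libraries left out or the replicate blocks. Counts from those fits therefore do not describe the members alone.

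With the replicate number as a block, 3 members were called in the average (rpl5 was lost) and 67 morpholino slopes. A block within each arm gave 65 morpholino and 0 wild-type slopes. Across arms, same-numbered libraries correlated at 0.164 to 0.424 for number 1, over 0.1 in 5 of 5 hours, and at -0.088 to 0.169 for number 2, over 0.1 in 1 of 5. With 2 wild-type libraries an hour, the deviation of number 2 is that of number 1 with its sign reversed. The results for the 2 numbers are thus not separate tests and cannot show that the arms are unpaired. As r over 0.1 was not reached in every pair, the numbers were not taken as pairs. rpl10a and rplp0 were called under 35 of 36 alternatives each, lost against younger wild type, and rpl3l under 36 of 36, with adjusted p up to 0.0360. The 36 include the comparisons over 14 to 16 hpf alone, which differ from the average in hours and not in processing. Where low counts were filtered, rpl3l was kept only through morpholino libraries, so its calls are not independent support. In none of the alternatives run did a called change reverse. At 1 to 22 counts per library for rpl3l and 9 to 43 for rps27, depth limits what can be said of these members, and 2 or 3 libraries per group limit the rest.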

Other observations

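The split of reads between the 2 transcripts of rpl32 differed between the wild-type replicate numbers. The longer transcript held 23.0% to 36.7% of the gene's estimated counts in the 5 wild-type libraries numbered 1 and 13.5% to 20.8% in the 5 numbered 2, with no overlap. In the morpholino arm it held 18.1% to 38.8% in replicate 1, 16.4% to 26.1% in replicate 2 and 28.6% to 47.9% in replicate 3. The ranges of replicates 2 and 3 did not overlap, and that of replicate 1 overlapped both. The summed rpl32 level differed little between arms (log2 change 0.01 ± 0.15, edgeR adjusted p = 0.973). For rpl12, which also has 2 abundant transcripts, the longer held 24.6% to 41.9% of counts over all 25 libraries.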
